A study of Mus musculus with 3 samples.

Results

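B-lineage cells were a small population among the Pthrp-mCherry+ cells of mouse molars, chosen by their UMIs (unique molecular identifiers, the counted molecules) of Cd79a and Cd79b. Cells were kept from 500 detected genes upwards and up to a mitochondrial UMI share of 20%, and a kept cell was a member if it held at least 1 UMI of each gene and at least 4 of both together. Since these UMIs chose the members, all values of the same cells are a description. The rule selected 208 of 24328 kept cells (27089 deposited), of which 170 were from the P15 library, 34 from P25 and 4 from 8 weeks. The libraries were made from pooled mandibular molars of Pthrp-mCherry knock-in mice at 15 days, 25 days and 8 weeks of age. The knock-in reporter marks cells that express Pthlh, the gene of PTHrP, and the sorted cells were labelled as cementoblasts and their precursors, so B-lineage cells lay outside the labelled cell type. Cells sorted for mCherry were profiled with the 10x Genomics Chromium 3' kit, with 1 library per time point and 12926, 8971 and 5192 cells. The P15 library held 188157997 UMIs, the P25 library 169712592 and the 8-week library 46234378. With 1 library per time point no difference between time points was tested, and none between classes of cells was tested either. The intervals given (95%, by Clopper-Pearson for a share and by the Poisson distribution for a level, both exact) cover counting error only.

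Cd79a and Cd79b form the signalling part of the B-cell receptor. B cells develop from progenitors that rearrange their immunoglobulin heavy chain with the recombinase of Rag1 and Rag2, pair it with the surrogate light chain of Vpreb1 and Igll1 in a pre-B receptor, and then divide. They next leave the cycle, rearrange a light chain, and as they mature gain Ms4a1 (CD20), MHC class II and Fcmr. In mice after birth this development is known chiefly from bone marrow, where stromal cells supply Cxcl12 and interleukin 7.

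Vpreb3 encodes a B-lineage protein related to the surrogate light chain. Its 5' flank is shown because, among genes of at least 100 CPM at P15, it had the largest ratio to the other immune cells, beside that of Cd79a, which chose the cells. Both were read from RefSeq promoters (GRCm38.p6, plus strand), with the octamer ATTTGCAT or its reverse complement ATGCAAAT in capitals. The Vpreb3 sequence lies at chr10:75948050-75948299, within the GENCODE gene (75943057 to 75949657) but directly before the first exon of its shorter transcript. The Cd79a sequence lies at chr7:24897247-24897380, directly before the gene (24897381 to 24902197).
Vpreb3: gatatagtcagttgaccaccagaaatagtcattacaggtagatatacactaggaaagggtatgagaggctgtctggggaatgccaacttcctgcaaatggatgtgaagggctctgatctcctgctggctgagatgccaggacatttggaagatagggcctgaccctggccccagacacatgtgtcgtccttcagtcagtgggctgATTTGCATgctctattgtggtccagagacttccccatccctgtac
Cd79a: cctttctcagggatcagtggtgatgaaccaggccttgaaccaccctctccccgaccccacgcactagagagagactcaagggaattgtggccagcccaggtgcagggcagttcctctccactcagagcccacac
The octamer began 45 bases before the Vpreb3 start. Over the 250 bases before the start on either strand, 490 of 27025 genes with a promoter (1.81%) held it. Of the B-lineage identity list, 13 of 19 genes had a promoter and 2 of them (Vpreb3 and Blnk) held the motif. In Blnk (chromosome 19, minus strand), which encodes an adaptor of B-cell receptor signalling, it began 130 bases before the start. None of the 12 matched genes of the pre-B receptor and recombination list and none of the 19 matched transcription factors held it, and of 12 matched B-cell receptor signalling genes 2 did (Blnk and Prkcb). A match is a description of the letters only.

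The members made up 1.49% of kept cells at P15 (170 of 11412, 95% interval 1.28 to 1.73%), 0.408% at P25 (34 of 8325, 0.283 to 0.57%) and 0.0871% at 8 weeks (4 of 4591, 0.0237 to 0.223%). The share was thus highest at P15, and the intervals of the 3 libraries did not overlap. Other cells with a Ptprc UMI (CD45, carried by nearly all blood cells except red cells) also became fewer, from 1003 to 264 and 27. Among B-lineage and other Ptprc-positive cells together, members made up 14.5% at P15 (12.5 to 16.6%), 11.4% at P25 (8.03 to 15.6%) and 12.9% at 8 weeks (3.63 to 29.8%), and these intervals overlapped. Members counted here with or without a Ptprc UMI, which 120, 26 and 2 of them held, while every other cell had to hold one. The sides of this share were thus not counted by the same rule. The mCherry gate of the sort can set both shares, and each gate, animal pool and library cannot be told apart from its time point. The libraries shared between 13 and 26 cell barcodes in pairs, and no barcode of a member was shared.

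**Figure D1:**
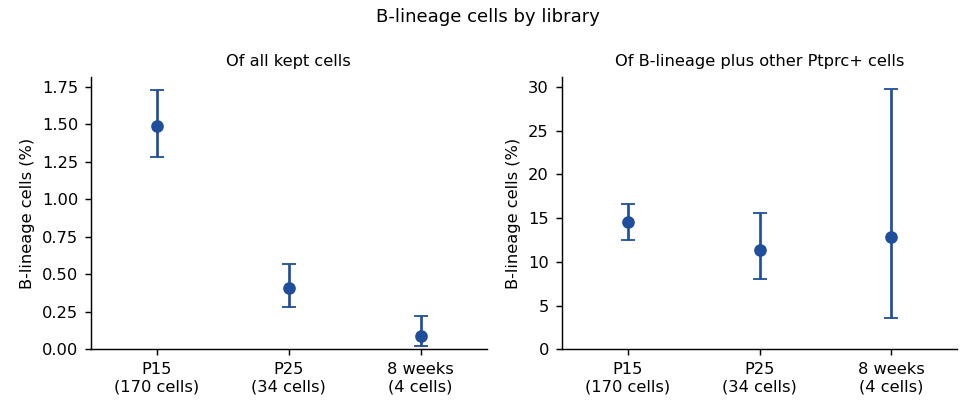
Points give the B-lineage cells of each library as a percentage of all kept cells (left axis panel) or of B-lineage plus other Ptprc-positive cells (right panel), with exact 95% Clopper-Pearson bars. The left share went from 1.49% at P15 to 0.0871% at 8 weeks, while the bars of the right share overlapped.

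The values around the threshold are given as a description, since the rule used them. Members at P15 held 5 to 76 UMIs of Cd79a and Cd79b together (median 24.5), and the lowest members held 5, 5, 6, 7 and 7. Only 5 kept cells with both genes lay outside, with 2, 2, 2, 2 and 3 UMIs, and 530 kept cells held UMIs of only Cd79a or only Cd79b. At P25 the lowest members held 4 and 9 UMIs, and 1 cell lay outside with 2. Cd79b alone was less particular to these cells. In 50 kept cells at P25 there were at least 4 Cd79b UMIs and none of Cd79a, and all 50 held Ptprc, Csf1r (the macrophage growth factor receptor) and C1qa (a complement subunit of macrophages), 48 held Vcam1 and none held Vpreb3 or Pax5. These cells were outside the members, and their markers were looked up after the cells were found. At P15 there were 7 such cells, 6 of them with Csf1r.

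The members' other markers matched the label. Vpreb3 was detected in 169 of 170 members at P15 and in 33 of 34 at P25, and in the 8-week members at 15, 16, 31 and 46 UMIs. Ebf1, a transcription factor that specifies B cells, had at least 1 UMI in every member of the 3 libraries. Ptprc was detected in 120, 26 and 2 members. Its median was 1 UMI per member at P15, and 50 members held none, so Ptprc alone missed these cells at this depth. The members were shallow: their median at P15 was 4402 UMIs and 1824 genes, against 12148 UMIs and 3067 genes in other Ptprc-positive cells and 15523 UMIs in Ptprc-negative cells. At P25 the medians were 5464, 16422 and 16636 UMIs. Genes that define T and NK cells were near 0 at P15: members held 0 UMIs of Cd3e, Cd3g, Nkg7 and Ncr1, and 6 of Cd3d, in 2 cells. The 9 of 12 T and NK list genes in the P15 reference, which lacked the T-receptor constant genes Trac, Trbc1 and Trbc2, summed to 14.5 CPM in members and 113 CPM in other Ptprc-positive cells.

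Some members also carried many UMIs of other lineages. For 26 members at P15 and 4 at P25, at least 1% of the UMIs came from markers of mesenchyme (Col1a1, Col1a2, Col3a1, Sparc), epithelium, endothelium, myeloid, neutrophil, T and NK or red cells. The limit was set after the values were seen. The limit planned beforehand was more than 0.5% and at least 5 UMIs from the mesenchyme, myeloid, neutrophil or T and NK markers. It was met by 45 members at P15 and 5 at P25. At P15 the mesenchyme markers reached the 1% limit in 19, the neutrophil markers in 5, the myeloid markers in 4 and the epithelial markers in 2 cells. Median depth was 17416 UMIs in the 26 cells at the 1% limit and 4009 in the other 144, and the 26 held 33.7% of the members' UMIs. At P25 the 4 cells held 47.9% of the UMIs. Scrublet, which scores likely doublets, placed 10 of the 26 and 4 of the 144 at P15 among its highest 6% of cells. All members were kept in the values below unless "unmixed" is written, which means the 144, 30 and 4 cells under the 1% limit. Without the cells that Scrublet scored highest, members were 1.45% of kept cells at P15, and 146 genes were higher and 285 lower in the comparison with other Ptprc-positive cells given below.

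The reporter separated the same cells at P25. All 125 mCherry UMIs of the P25 members lay in the 4 mixed cells, and the 30 unmixed members held none. Here and below, the level that 0 UMIs allow is that of 3 UMIs over the class, here 16.2 CPM (UMIs scaled to 1e+06 in the summed cells). The exact interval reached 19.9 CPM. The level was 366 CPM in Ptprc-negative cells (363 to 369) and 117 CPM in other Ptprc-positive cells (107 to 126). At P15 mCherry stood at 350 CPM in mixed members (300 to 405) and at 25.8 CPM in unmixed members (16.9 to 37.8), in 13 of 26 and 15 of 144 cells. The 3 mixed cells with the most held 155 of the 179 mCherry UMIs of mixed members, and without the highest, with 92 UMIs, the level was 182 CPM (145 to 224). Of the 26 UMIs of unmixed members, 12 lay in 2 cells, without which the level was 15 CPM (8.2 to 25.2). The level in Ptprc-negative cells was 334 CPM. The 4 members at 8 weeks held no mCherry UMI, which allows up to 128 CPM by the same limit (exact interval to 158 CPM). Pthlh itself was at 19.9 CPM in unmixed members at P15 (12.1 to 30.7) and at 159 CPM in Ptprc-negative cells. Unmixed members thus held little or no reporter transcript, although all cells came from the mCherry gate, and transcript is not the fluorescence that was sorted.

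**Figure D2:**
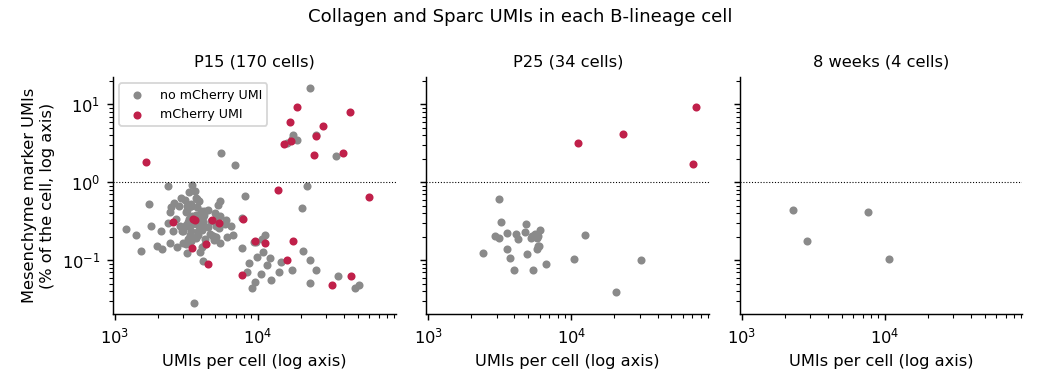
Each point is a B-lineage cell, placed by its UMIs (x, log axis) and by the percentage of them from Col1a1, Col1a2, Col3a1 and Sparc (y, log axis, values under 0.02% drawn at 0.02%), for each library. Cells with an mCherry UMI are red, and the dotted line marks 1%. At P25 the 4 cells above the line are the 4 with mCherry UMIs.

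Against the other Ptprc-positive cells at P15, the members were marked by the genes of B-cell identity and by low myeloid genes. The comparison cells were 436 neutrophil-type cells (at least 50 UMIs of S100a8 and S100a9), 360 further cells with Csf1r, 19 with T and NK markers and 188 others, and 228 of the 1003 held at least 1% of their UMIs from mesenchymal, epithelial or endothelial markers. Of 7084 genes that reached 20 CPM in either class, 123 (1.74%) were at least 4-fold higher in members and 236 (3.33%) at least 4-fold lower, on the scale of log2(CPM + 10). With unmixed members the counts were 192 and 402. At P25, 135 of 7687 genes (1.76%) were at least 4-fold higher and 336 (4.37%) at least 4-fold lower. TMM scaling, another estimate of relative depth, moved the median log2 ratio at P15 from 0.17 to 0.02.

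Of the B-lineage identity list, 10 of the 17 genes that the rule did not use were at least 4-fold higher at P15 and none lower (median log2 ratio 2.34). Vpreb3 stood at 2086 CPM in members (2014 to 2160) and 0.55 CPM in other Ptprc-positive cells, a log2 ratio of 7.63. Ms4a1 was at 267 CPM (241 to 294) against 0.413, but was detected in only 62 of 170 members, so it divided them. Fcrla, an intracellular Fc receptor-like protein of B cells, was at 385 CPM against 1.44 and was found in 147 members. The adaptor gene Blnk was at 238 CPM against 18.9, and Pou2af1, a coactivator of octamer-binding factors, at 214 CPM against 0.481. Coro1a, an actin regulator of all white blood cells, was at 555 CPM against 561, and Laptm5 was at 257 against 478.

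Of the B-cell transcription factors, 9 of 21 tested genes were at least 4-fold higher and none lower. Pax5, which commits cells to the B lineage, had 363 UMIs in members (239 CPM, 215 to 265) and 2 UMIs in the other Ptprc-positive cells, a 1738-fold ratio with a counting interval of 478 to 14408. Ebf1 was at 2047 CPM against 39.9, but in this tissue it was not restricted to B cells: Ptprc-negative cells held 100.0 CPM, more than the other immune cells. Spib was at 254 CPM against 1.17, Bach2 at 286 against 6.39, Irf4 at 192 against 4.68 and Myb at 210 against 9.01. Tcf4, Klf2 and Id3 differed little from the comparison cells, with ratios of 0.952, 1.01 and 1.01. Spi1 (PU.1), needed at high levels by myeloid cells, was lower at 94.8 CPM against 298.

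Other genes among the 12 with the largest ratios were Ly6d, Myl4, Chchd10, Mzb1 and Ptprcap, of which Ptprcap is also on the identity list and Mzb1 on the plasma cell list. Ly6d, a surface marker gained by B-biased progenitors, was at 1404 CPM against 16.4 and in 83.5% of members. Myl4, a myosin light chain best known from heart muscle, was at 355 CPM against 2.2, in 56.5% of members. Chchd10, a mitochondrial protein gene, was at 1069 CPM against 27.1 in 95.9% of members. Mzb1, a chaperone for immunoglobulin folding, was at 481 CPM against 0.481, and Ptprcap, which encodes a CD45-associated protein, at 681 against 14. At P25 the log2 ratios of these 5 genes were 3.06, 4.54, 5.04, 5.33 and 5.33, against 5.74, 4.90, 4.86, 5.55 and 4.85 at P15.

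**Figure D3:**
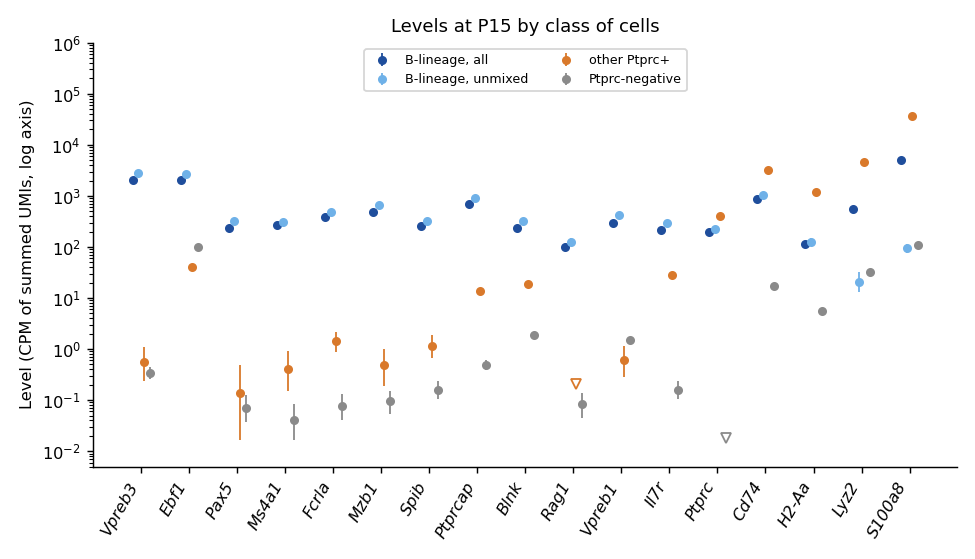
Levels at P15 in CPM of summed UMIs (log axis) for all 170 members, the 144 unmixed members, 1003 other Ptprc-positive cells and 10239 Ptprc-negative cells, with exact 95% Poisson bars. Open triangles mark the limit that 0 UMIs allow. Vpreb3 stands at 2086 CPM in members and 0.55 CPM in other Ptprc-positive cells, Cd74 is lower in members, and S100a8 drops to 95.4 CPM once mixed members are left out.

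Among the lower genes were those of the neutrophil and myeloid lists. All 9 neutrophil and all 11 myeloid genes on the lists were at least 4-fold lower, in all and in unmixed members. S100a8, the most abundant in members after S100a9, was at 5054 CPM in all members but 95.4 CPM in unmixed members, against 37312 CPM in other Ptprc-positive cells and 111 CPM in Ptprc-negative cells. The 12 genes with the smallest ratios were the stefin genes BC100530, Gm5483, Stfa1, Stfa2 and Stfa2l1, the basophil genes Prss34 and Mcpt8, and the chemokine genes Ccl2, Ccl3, Ccl4, Ccl7 and Cxcl2. Prss34 was at 1.32 CPM (2 UMIs) against 517. Their log2 ratios lay between -6.26 and -4.53. Without neutrophil-type cells in the comparison, the ratios of the 5 stefin genes changed sign, so their direction held only with neutrophil-type cells in the comparison. MHC class II genes, which antigen-presenting cells use, were lower in 4 of 8 tested members of their list (median log2 ratio -1.99). Cd74, the invariant chain, was at 868 CPM against 3179, and H2-Aa at 113 against 1197. In cells thinned to 2000 UMIs, Cd74 was nevertheless detected in 46.6% of members and 24.7% of other Ptprc-positive cells, so no order was read from the share.

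Genes of heavy and light chain recombination and of the pre-B receptor were high in members. Of 10 tested genes, 7 were at least 4-fold higher in members at P15. Rag1 had 149 UMIs (98.1 CPM) in 69 of 170 members and 0 in the other Ptprc-positive cells, at least 476-fold higher by the limit of 3 UMIs over that class. Rag2 had 28 UMIs in 20 members and 0 elsewhere among Ptprc-positive cells, at least 89.4-fold higher. In cells thinned to 2000 UMIs, Rag1 was detected in 24.5% of members, 0% of other Ptprc-positive cells and 0.0201% of Ptprc-negative cells. Vpreb1 had 444 UMIs in 26 members and Igll1 201 in 19, and all 19 members with Igll1 also held Vpreb1. Vpreb1 stood at 1.53 CPM in Ptprc-negative cells and 0.619 CPM in other Ptprc-positive cells, against 292 CPM in members. Dntt, the terminal transferase that adds bases at heavy chain joints, had 57 UMIs in 10 members. Il7r, the receptor chain for interleukin 7, was in 92 members, at 217 CPM against 28.7 CPM. Kit and Flt3, receptors of earlier progenitors, were at 6 UMIs and 1 UMI in all members together.

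To show how members varied, they were divided at P15 by UMIs of stage genes. The pre-B receptor group held at least 3 UMIs of Igll1, Vpreb1, Vpreb2 and Dntt, and the late-stage group at least 2 of Fcer2a, Cr2 and Fcmr, since Ighd was outside the P15 gene reference. The first group had 18 cells (10.6%, 6.4 to 16.2%), the second 30 (17.6%, 12.2 to 24.2%), 1 cell met both limits and 121 (71.2%, 63.7 to 77.9%) met neither. These are ranges and not cell types. For the pre-B receptor genes 143 members were at 0 and 1 was just below the limit. For the late-stage genes 24 members were just below the limit and 14 at it, so that group had no gap at its edge. Thinned to 2000 UMIs, 7.36% and 5.52% of 163 members met the limits. Median depth was 14778 UMIs in the pre-B receptor group, 5778 in the late-stage group and 4004 in the cells with neither.

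Most of the listed cell cycle genes were higher in the pre-B receptor group than in the late-stage group. Of 23 listed genes, the interval of the level in the pre-B receptor group lay above that of the late-stage group for 21 and above that of the cells with neither for 16, and it overlapped the latter for 7, among them Cenpf (288 against 320 CPM) and Ube2c (315 against 287 CPM). No share over all genes was set beside these counts, so they describe the listed genes only. The intervals leave out the spread between cells, and deep cells weigh most in the sums, so no order of the groups was tested. By at least 5 UMIs of 10 mitotic genes, 32 of 170 members (18.8%, 13.2 to 25.5%) were cycling, 10 of 18 (55.6%, 30.8 to 78.5%) in the pre-B receptor group, 2 of 30 (6.67%, 0.818 to 22.1%) in the late-stage group and 20 of 121 (16.5%, 10.4 to 24.4%) with neither. Thinned to 2000 UMIs, with groups formed anew, the shares were 3 of 12 (25%, 5.49 to 57.2%), 0 of 9 and 20 of 142 (14.1%, 8.82 to 20.9%), and their intervals overlapped. Mki67, a proliferation marker, stood at 727 CPM (643 to 819), 90.7 CPM (59.7 to 132) and 373 CPM (333 to 417) in the same order. In thinned cells of the groups as formed before thinning (17, 29 and 116 cells), Mki67 was detected in 52.9%, 6.9% and 12.1%. The cycling cells were also deep, with a median of 12304 UMIs. The genes that formed the groups, such as Vpreb1 and Igll1, were left out of the ranking by ratio. The largest remaining ratios over the late-stage group were those of S-phase genes for the most part: Cdca7, Uhrf1, Mcm3, Rrm2, Dnmt1, Hells and 2810417H13Rik, and in addition Nrgn. Cdca7 stood at 264 CPM against 3.36 and Uhrf1, which maintains DNA methylation, at 248 against 6.72. Without cycling cells none of these 8 genes passed 4-fold: the log2 ratios of Cdca7, Uhrf1, Rrm2, Dnmt1 and 2810417H13Rik lay between 0.37 and 1.24, and those of Mcm3, Hells and Nrgn changed sign.

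Of the 22 listed B-cell transcription factors, the interval of the level in the pre-B receptor group lay above that of the late-stage group for 5 (Ebf1, Lef1, Myb, Erg and Sox4) and below it for 5 (Spib, Irf8, Pou2f2, Klf2 and Id3), and overlapped it for 12. These counts, too, stand without a share over all genes and describe the listed factors only. Their intervals leave out the spread between cells, and that of Erg rested on 25 UMIs in 8 cells of the pre-B receptor group. Erg, a transcription factor of progenitors, was at 67.3 CPM (43.6 to 99.4) against 3.36 CPM (0.085 to 18.7) in the late-stage group and 3.55 CPM with neither. Lef1, a Wnt effector used by early B cells, was at 162 CPM (123 to 208), 30.2 CPM (13.8 to 57.4) and 53.2 CPM (38.8 to 71.2). Myb was at 323 CPM, 36.9 CPM and 220 CPM in the same order. By counting error alone, the intervals of the pre-B receptor and late-stage groups did not overlap for these 3 genes. Ebf1, by contrast, was highest in the cells with neither, at 2661 CPM against 1416 CPM in the pre-B receptor group and 1011 CPM in the late-stage group.

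The late-stage group carried the antigen-presenting and mature B-cell genes. Cd74 was at 2444 CPM (2270 to 2628) against 13.5 CPM (4.37 to 31.4) in the pre-B receptor group, and in 28 of 30 against 3 of 18 cells. Ms4a1 was at 729 CPM (635 to 832) against 8.08 CPM (1.67 to 23.6). Ly6d was at 2522 CPM against 29.6, although it was among the strongest genes of the members as a whole. Tnfrsf13c, the receptor for the survival factor BAFF, was at 339 CPM (276 to 412) against 35 CPM (18.6 to 59.8). S100a8, S100a9, Ngp, Camp and BC100530 were also among the 8 genes with the largest ratios on this side, with group-forming genes such as Fcmr left out. Their log2 ratios shrank to -0.34, -0.86, -0.72, 0.45 and -0.24 with unmixed members, and 6 of the 30 late-stage cells were mixed, against 1 of 18.

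The cells with neither set of genes, the majority, had the highest level of Rag1. It was at 150.0 CPM (125 to 179) there, against 43.1 CPM (24.6 to 70) in the pre-B receptor group and 10.1 CPM (2.08 to 29.4) in the late-stage group. Rag2 was at 22.5 CPM (13.5 to 35.1), 10.8 CPM (2.93 to 27.6) and 16.8 CPM (5.45 to 39.2), with overlapping intervals. Il7r was at 294 CPM (259 to 333), 199 CPM (156 to 250) and 16.8 CPM (5.45 to 39.2). In thinned cells of the groups as formed before thinning, Il7r was detected in 39.7%, 47.1% and 3.45%, so no order was read between the first and the second. Il2ra (CD25), a marker of small pre-B cells in mouse marrow, was at 52 CPM (37.8 to 69.8), 8.08 CPM (1.67 to 23.6) and 16.8 CPM (5.45 to 39.2). Across single members, 48 of 92 cells with Il7r held Rag1 (52.2%), against 21 of 78 without it (26.9%). Ms4a1 was found in 10 of 69 members with Rag1 (14.5%) and in 52 of 101 without (51.5%). In cells thinned to 2000 UMIs these shares were 35.7% against 18.7%, and 12.5% against 30.9%. Pax5, at 218, 228 and 253 CPM in the pre-B receptor group, the late-stage group and the rest, had overlapping intervals.

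**Figure D4:**
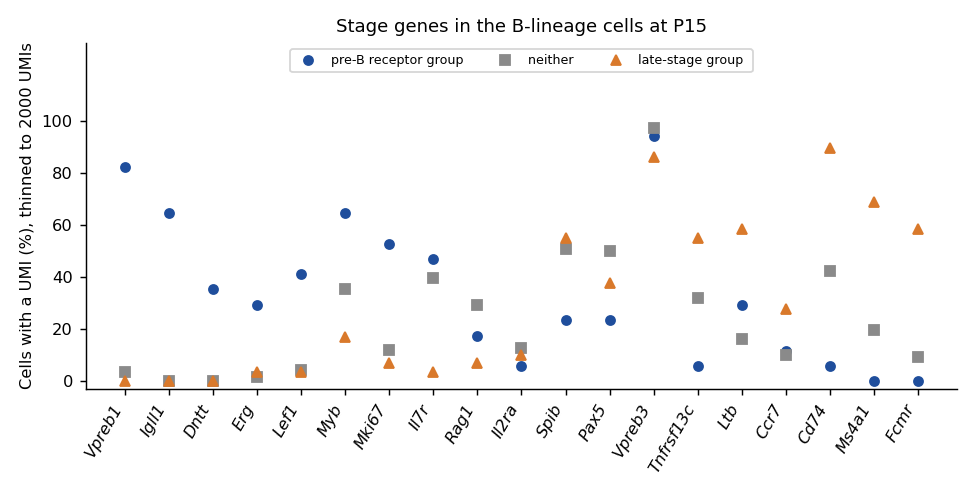
For each stage gene (x), the percentage of P15 members with a UMI after thinning to 2000 UMIs (y), in 17 cells of the pre-B receptor group, 29 of the late-stage group and 116 with neither. The groups are those formed before thinning. Vpreb1, Igll1 and Dntt chose the pre-B receptor group and Fcmr the late-stage group; the other genes did not form the groups. Rag1 is highest in cells with neither (29.3%), and Ms4a1 in the late-stage group (69%).

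The remaining lists described signalling, cycling and the cells' surroundings. Of B-cell receptor signalling genes, 4 of 15 tested were at least 4-fold higher at P15 (among them Blk, Blnk and Siglecg) and none lower, and of late-stage genes 4 of 10 (Fcmr, Ccr7, Tnfrsf13c and Cd38). Blk, a kinase of the receptor, had 0 UMIs in other Ptprc-positive cells and was at least 383-fold higher in members. Of 23 cell cycle genes 5 were higher, but 1 with TMM scaling and 10 with unmixed members. Of the 12 genes of tooth mesenchyme and the reporter, none passed 4-fold in all members and 7 were lower in unmixed members, whose summed level was 3749 CPM against 17297 CPM in all members. None of 10 tested dissociation stress genes passed 4-fold, against 3 lower in unmixed members, and none of 4 plasmacytoid dendritic cell genes did. Of 5 red cell genes, 3 were lower.

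The lists of plasma cells and of activated and germinal centre cells gave mixed values. Of 5 tested plasma cell genes, 2 were at least 4-fold higher in members (Mzb1 and Irf4, given above) and none lower, and the list summed to 824 CPM against 221 CPM. Of 5 tested genes of activation and germinal centres, none was higher and 1 (Cd86) lower. Jchain, which joins secreted antibodies, was at 0 UMIs in the members of all libraries, and at P15 Tnfrsf17 and Derl3 were at 0 too, which allows up to 1.98 CPM. Prdm1, the regulator of plasma cells, had 8 UMIs in 8 members. Cd69, an early activation marker that also holds cells in tissue, was at 279 CPM against 69.7 in other Ptprc-positive cells. Taken without the pseudocount used for calls, its ratio was 4 (3.56 to 4.48), and with the pseudocount Cd69 did not pass 4-fold. Cxcr5, which leads B cells into follicles, had 12 UMIs in 11 members.

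At P25 the smaller set held 3 cells in the pre-B receptor group, 7 in the late-stage group and 24 in neither, with 6 cycling cells. Ighd was in the P25 reference and counted there, so the late-stage limits of P15 and P25 are not on the same genes. Rag1 was in 12 and Il7r in 21 of 34 members. Vpreb1 had 96 UMIs, all in 3 cells. Cd74 was at 1831 CPM in members and 2314 CPM in other Ptprc-positive cells, and no MHC class II gene passed 4-fold, where 4 were lower at P15. With unmixed members, 2 of the 8 tested genes were at least 4-fold higher. The 8-week members numbered only 4, with 2268, 2862, 7628 and 10663 UMIs. Of these, 3 held Il7r (4, 5 and 1 UMIs), 2 held Rag1 (1 and 2 UMIs), and the deepest held 21 Top2a UMIs. None held Vpreb1, Ms4a1 or Fcmr, which at this depth says little, since 0 UMIs allow up to 128 CPM.

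Immunoglobulin genes could be read only at P25, because the gene reference of the other libraries (22056 genes, against 32293 at P25) held just 1 of the 13 listed genes, Jchain. Ighm, the constant region of IgM, was detected in all 34 members, at 5 to 77 UMIs (median 24) and 2602 CPM (2438 to 2775). In the 30 unmixed members it stood at 4420 CPM (4123 to 4734). Its gene lies at chr12:113418558-113422730 on the minus strand. In other Ptprc-positive cells Ighm stood at 53.9 CPM and in Ptprc-negative cells at 0.246 CPM. Those 274 UMIs lay in 74 of 264 cells, of which 67 held Csf1r, while Igkc was found in 2 of the 264. Ighd, which naive B cells add, had 25 UMIs in 11 members. Of the switched isotypes, Ighg2b had 11 UMIs in 1 cell, and Igha and Ighg1 were at 0.

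Light chain transcripts separated the P25 members further. Igkc, the kappa constant region, had 1165 UMIs in 28 of 34 members, and Iglc1, Iglc2 and Iglc3 together, the lambda constant regions, 481 UMIs in 17. In Ptprc-negative cells, 0.324% held Igkc and 0.174% a lambda gene. With a limit of 3 UMIs, 18 members had kappa only, 3 lambda only, 10 both and 3 neither. The 3 lambda-only cells held 38 to 143 lambda UMIs (median 98) and 0 kappa UMIs. The 10 cells with both held 8 to 122 kappa UMIs (median 70.5) and 3 to 46 lambda UMIs (median 15). Their median depth of 4776 UMIs was below the 5616 of kappa-only cells, and 1 of the 10 was mixed. Of 29 members with at least 10 light chain UMIs, 25 were led by kappa and 4 by lambda, and in 22 over 90% of these UMIs came from the leading class. The 3 cells with neither light chain were the 3 cells of the pre-B receptor group, all held a Rag1 or Rag2 UMI, and they held 11 to 24 Ighm UMIs. Rag genes were found in 9 of 18 kappa-only cells, 2 of 3 lambda-only cells and 1 of 10 cells with both. UMIs of the 348 variable segments in the reference were few, 32 in 17 members, against 0 in other Ptprc-positive cells.

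**Figure D5:**
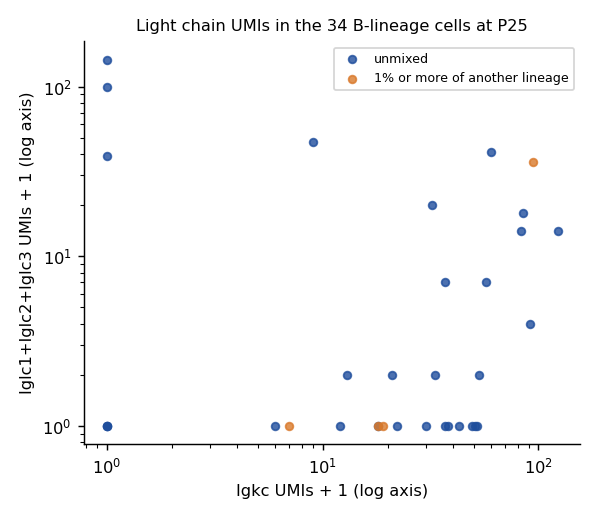
Each point is 1 of the 34 B-lineage cells at P25, placed by Igkc UMIs + 1 (x, log axis) and the summed Iglc1, Iglc2 and Iglc3 UMIs + 1 (y, log axis). On the lower edge lie 14 cells with Igkc and 0 lambda UMIs, 3 lie on the left edge with 38 to 143 lambda UMIs, and points of the 3 cells with neither overlap at the origin.

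Of 9 tested niche receptor genes at P15, 2 were at least 4-fold higher in members (Il7r and Tnfrsf13c) and 1 lower (Csf1r), and their ligands were looked for in the Ptprc-negative cells of the same libraries. Cxcr4, the receptor for Cxcl12, was in 118 of 170 members at P15, at 211 CPM against 91.7 CPM in other Ptprc-positive cells. Cxcl12 stood at 129 CPM in Ptprc-negative cells at P15 (127 to 130), 113 CPM at P25 (112 to 115) and 198 CPM at 8 weeks (194 to 202), and 44.8%, 46.4% and 48.4% of these cells held a UMI. Kitl was at 37.3, 15.1 and 23.6 CPM and Vcam1 at 26, 17.9 and 9.37 CPM. Il7, the ligand of Il7r, was near 0, with 74, 21 and 15 UMIs or 0.439, 0.136 and 0.334 CPM. Tnfsf13b, which encodes BAFF, was at 0.238, 0.174 and 0.556 CPM there and at 11.6 CPM in the other Ptprc-positive cells at P15. Pth1r, the receptor for PTHrP, had 22 UMIs in all members at P15 but stood at 2.98 CPM in unmixed members, in 3 of 144 cells, against 58.1 CPM in Ptprc-negative cells. Cells outside the mCherry gate were not measured, so ligands from other sources in the tissue are not covered.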

How the data were processed

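Mandibular molar cells sorted for Pthrp-mCherry gave 1 library each at P15, P25 and 8 weeks. The authors deposited UMI counts per gene and cell, without normalization, from Cell Ranger (6.1.2 at P15 and 8 weeks and 6.0.1 at P25, per the file headers; the build in the submitters' processing notes is mm10). The P25 reference held more genes, so software, reference and time point cannot be told apart. Counts were summed per class and library and given as CPM of the 21446 shared genes. The cell filter was 500 detected genes or more and mitochondrial UMIs of 20% or less, and it removed 7 cells at P15 that met the Cd79 rule. Doublets were kept. Ratios used a pseudocount of 10 CPM, and calls were made at 4-fold among genes that reached 20 CPM in either class. Named genes were the fixed lists, the 12 largest and 12 smallest ratios among genes with at least 100 CPM at P15, and 8 on each side between stage groups with at least 200 CPM. The genes that formed the stage groups were left out of the latter. Members and lists were chosen with earlier results of these data known. The edgeR test needed 20 members in each library, which 8 weeks lacked, so none was made. Fold calls were tested on simulated data. Alternatives covered cell filters, limits, doublets, scaling, pseudocount and comparison cells. Gene positions were from GENCODE vM21 (GRCm38). Python 3.11.15, scanpy 1.11.5 and edgeR 4.0.16 (TMM only) were used. Some genes of the lists are not reported here.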

Additional observations from a re-analysis of the deposited data

How the results depend on the processing

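Of 93 values of the main comparisons recomputed under the alternatives, 77 stayed within their interval or within 1.5 times the count and 16 moved; of 392 single-gene ratios under alternatives that can change them, 368 kept direction and side of 4-fold, 13 crossed it and 11 changed sign. The P15 share of kept cells was 1.1% without members with other-lineage UMIs beyond 0.5% and 1.26% with the 1% limit, which was chosen after seeing the data. Against 123 higher and 236 lower genes, the counts were 195 and 476 with the 0.5% limit, 192 and 402 with the 1% limit, 233 and 433 with a pseudocount of 1 CPM and 553 and 697 when called at 2-fold. There were 446 lower genes without mixed cells on both sides (added after seeing the data) and 150 lower genes at a minimum of 100 CPM. A higher minimum tests fewer genes; the cause of the other changes was not tested. The late-stage share of 17.6% was 31.8% with cuts of 2, 1 and 3 UMIs, 7.06% with cuts of 5, 4 and 10, and 5.52% with cells thinned to 2000 UMIs. Without cycling cells, 16 in place of 30 genes were at least 4-fold higher in the pre-B receptor group than in the late-stage group. This setting left out 10 of the 18 pre-B receptor cells, and no share over all genes was set beside the counts. All 8 named genes of that group lost 4-fold: the log2 ratios of Cdca7, Uhrf1, Rrm2, Dnmt1 and 2810417H13Rik became 0.74, 0.37, 1.24, 0.74 and 0.74, and those of Nrgn, Mcm3 and Hells -1.61, -0.55 and -1.80. With cuts of 5, 4 and 10 UMIs those of Ngp and Camp became 0.85 and 1.38, and Camp was at 0.45 with unmixed members. Without neutrophil-type comparison cells the ratios of Gm5483, Stfa1, Stfa2, Stfa2l1 and BC100530 became 0.05, 0.13, 0.64, 0.23 and 2.95. No paired analysis of time points was possible because each had 1 library. For the same reason no library could be left out. Classes of cells were not compared in a test paired by library. Levels of the niche ligands were not recomputed.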
